A study of Mus musculus with 2 samples.

Results

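The 10 genes Fos, Fosb, Jun, Junb, Jund, Egr1, Klf6, Ier2, Ier3 and Dusp1 belong to the immediate early response or encode subunits of the transcription factor AP-1. They were chosen by symbol in the platform annotation, out of 19505 named genes, and 10 of 10 were found, each with 1 probe set. All 10 passed the level filter, which kept 10881 genes. The study had 2 Affymetrix arrays, 1 for each genotype. One held RNA of innate lymphoid cell (ILC) progenitors from mice with a Yeats4 deletion, and the other RNA of the same sorted population from wild-type littermates. Both populations were sorted from mice by flow cytometry as lineage-negative cells positive for CD127 and for α4β7 integrin that carry c-Kit and Sca-1 at intermediate levels. The sources used here do not give the mouse strain, the age, the type of Yeats4 allele, what drives the deletion or how many mice were pooled. Values are log2 expression values, and each difference is the knockout reading minus the wild-type reading, so a positive one means a higher value on the array labelled knockout. With 1 array per genotype there was no replicate error, and no test was possible.

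Immediate early genes are transcribed within minutes of a stimulus, without the need for new protein synthesis. MAP kinase signals reach them through serum response factor with its ternary complex partners and through CREB, and their messengers decay fast. FOS proteins pair with JUN proteins through a leucine zipper to form AP-1, which binds DNA, whereas JUN proteins can also pair with each other. AP-1 and EGR factors carry antigen receptor and cytokine signals in lymphocytes. Mechanical or enzymatic handling of tissue before sorting is also known to induce many of these genes.

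Yeats4, the gene labelled as deleted, encodes a YEATS domain reader of acetylated histones, and its probe set read 5.90 on the array labelled knockout and 5.96 on the wild-type array. Where the probes lie relative to the deleted part is not known here, so this reading does not check the label. Of 8 genes of the sort gate and of ILC progenitor identity, 7 read above the control threshold on both arrays. The remaining gene, Zbtb16, was under it on the array labelled knockout. That threshold, 4.80, is the higher of the 95th percentiles that the negative control probe sets reached on each array.

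The 10 early genes read above the control threshold on both arrays and differed little between them. No member differed 2-fold in either direction, and none reached 1.5-fold in the deposited values. Over all genes past the filter, the share 2-fold or more above wild type was 1.56% and the share 2-fold or more below it 0.781%. At 1.5-fold these shares were 9.16% above and 5.16% below. Among the 2301 genes in the members' own range of mean level, 0.304% were above and 0.435% below by 2-fold, and 5.48% were above and 1.26% below by 1.5-fold. Against those shares, 0 of 10 members is near the background. The members' median difference was 0.04, against 0.08 over all genes past the filter and 0.16 over genes in the same range of level. By sign, 6 members were above 0 and 4 below. Of all genes past the filter 41.0% were below 0, and of genes in the members' range of level 27.6%, so the count of members below 0 is near the share over all genes.

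Genes of like level give a closer yardstick, because the median difference on these arrays varied with level. In groups of 500 genes it was -0.03 around a mean of 2.96, 0.20 around 6.56 and 0.14 around 8.42. For each member the 500 genes nearest in mean level were taken, and their median difference ran from 0.13 to 0.18. Their spread, the scaled median absolute deviation, ran from 0.17 to 0.31. Against this yardstick, 7 members lay below the median of their neighbours and 3 above it, and 6 of 10 lay within 1 spread. Klf6, at -2.63 spreads, was the only member beyond 2 spreads. Next came Fosb at -1.90, Dusp1 at -1.57 and Junb at -1.17 spreads. This spread describes scatter between genes on these 2 arrays and is not an error of any single gene. No share of all genes beyond 1 or 2 spreads was computed, so the counts of members by spread stand without a background. Klf6 and Fosb lay outside the central 90% of their neighbours. Such a range leaves 10% of genes outside by definition, so 2 of 10 members is somewhat more than that share. Both lay on the low side, and with so few members the count was not tested.

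**Figure D1:**
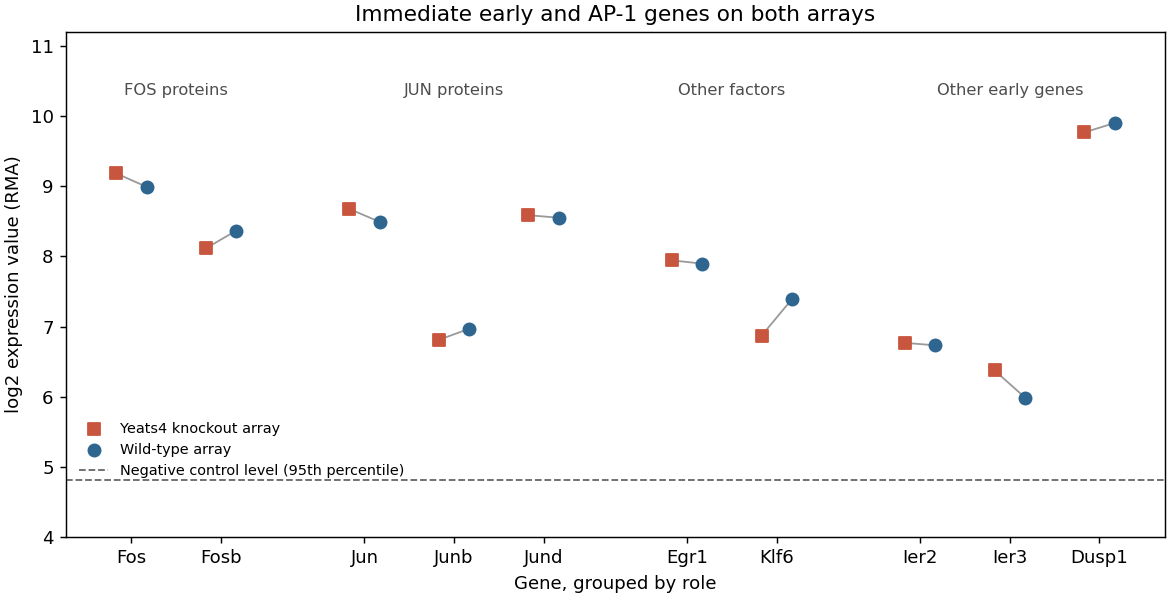
Log2 expression values (y axis) of the 10 early genes, grouped by role (x axis), on the Yeats4 knockout array (red squares) and the wild-type array (blue circles), with 1 array each and hence no error bars. Every point lies above the dashed control threshold of 4.80, and the steepest line is that of Klf6, at 6.87 and 7.39.

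Promoter sequences of 5 members are shown as context for the readings, since AP-1 and CREB sites are among the elements known to drive such genes. Klf6, Fosb and Dusp1 were taken because they lay the most spreads below genes of like level, and Fos and Jun because they lay just above. Each window runs from 250 bases before to 50 bases after the RefSeq transcript start in build GRCm38.p6, written 5′ to 3′ along the gene's strand. Capitals mark matches to the motifs listed after the sequences. The windows are chr13:5861239-5861538 on the plus strand for Klf6, chr7:19309996-19310295 on the minus strand for Fosb and chr17:26508423-26508722 on the minus strand for Dusp1. Those of Fos and Jun are chr12:85473640-85473939 on the plus strand and chr4:95052173-95052472 on the minus strand.
Klf6: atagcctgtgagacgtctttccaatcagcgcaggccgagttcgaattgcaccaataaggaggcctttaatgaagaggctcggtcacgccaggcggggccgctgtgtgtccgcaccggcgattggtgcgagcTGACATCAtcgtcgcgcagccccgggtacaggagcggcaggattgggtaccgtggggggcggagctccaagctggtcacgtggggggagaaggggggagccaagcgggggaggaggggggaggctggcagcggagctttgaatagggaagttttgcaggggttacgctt
Fosb: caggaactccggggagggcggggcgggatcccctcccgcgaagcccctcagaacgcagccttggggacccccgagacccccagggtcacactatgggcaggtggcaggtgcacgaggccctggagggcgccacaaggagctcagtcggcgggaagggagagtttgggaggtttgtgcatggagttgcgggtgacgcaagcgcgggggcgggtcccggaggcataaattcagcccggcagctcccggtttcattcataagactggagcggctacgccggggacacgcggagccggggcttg
Dusp1: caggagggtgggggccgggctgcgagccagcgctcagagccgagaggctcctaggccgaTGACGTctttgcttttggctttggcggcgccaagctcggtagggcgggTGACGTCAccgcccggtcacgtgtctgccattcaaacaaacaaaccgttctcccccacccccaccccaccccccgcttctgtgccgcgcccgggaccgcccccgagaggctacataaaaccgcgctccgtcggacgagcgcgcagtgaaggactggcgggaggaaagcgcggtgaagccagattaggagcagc
Fos: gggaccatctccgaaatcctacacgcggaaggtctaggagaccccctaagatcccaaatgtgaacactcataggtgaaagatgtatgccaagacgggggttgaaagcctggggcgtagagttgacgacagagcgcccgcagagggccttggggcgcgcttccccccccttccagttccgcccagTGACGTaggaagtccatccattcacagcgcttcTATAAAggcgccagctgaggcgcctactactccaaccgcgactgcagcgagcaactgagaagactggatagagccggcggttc
Jun: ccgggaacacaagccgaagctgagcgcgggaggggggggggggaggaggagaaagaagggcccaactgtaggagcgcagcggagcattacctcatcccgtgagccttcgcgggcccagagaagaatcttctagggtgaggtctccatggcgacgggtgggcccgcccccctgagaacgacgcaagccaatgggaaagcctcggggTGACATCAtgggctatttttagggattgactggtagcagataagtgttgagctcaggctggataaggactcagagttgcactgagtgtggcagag

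The motifs were searched on both strands in 8 members with a RefSeq window. Egr1 and Ier2 were not searched, so the counts below say nothing of them. They were chosen with these sequences in view. The full cAMP response element TGACGTCA, which CREB binds, was found in Dusp1 alone, starting 143 bases upstream, and in 1.79% of all 32851 windows. TGACNTCA, which includes the full element and leaves 1 base free, was in 3 members and in 8.83% of all windows. Klf6 and Jun both carry it as TGACATCA, starting 119 bases upstream in Klf6 and 45 bases upstream in Jun. The shorter TGACGT, also contained in the full element, was in Fos at 66 bases upstream and in Dusp1, against 7.51% of all windows. In Dusp1 it was found at 191 bases upstream, apart from the full element. TGANTCA, which includes the classical AP-1 site and leaves its middle base free, was in none of the 8 windows, against 7.81% of all windows. The CArG box of serum response factor was also in none, against 1.63% of all windows. The windows reach only 250 bases upstream, so these absences do not show that the genes lack such sites farther away. TATAAA was in Fos, starting 33 bases upstream, and in Junb, against 13.6% of all windows. In Junb it covers bases 1 to 6 after the annotated start, so it does not lie upstream as in Fos. Klf6 and Jun share the TGACATCA element, and their differences were -0.52 and 0.19. Any link between these motifs and the readings was not tested. The window of Fosb held no match to any of these motifs.

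Of the FOS proteins, Fos and Fosb differed in opposite directions. Fos, the founding member and the usual partner of JUN proteins, read 9.19 on the array labelled knockout and 8.99 on the wild-type array. The difference of 0.19 is a 1.14-fold higher reading, and 311 of the 500 genes of like level had a lower difference. Fos was therefore near the middle of genes of like level. Fosb, a close relative of Fos that also pairs with JUN proteins, read 8.12 on the array labelled knockout and 8.37 on the wild-type array. That is 1.19-fold lower (-0.25), and 22 of 500 genes of like level had a lower difference. Fosb lay just outside the central 90% of these genes, whose lower end was -0.23.

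The remaining FOS relatives read lower on the array labelled knockout. Fosl2, a FOS-related AP-1 subunit, read 5.44 on the array labelled knockout and 5.89 on the wild-type array, a difference of -0.44, and 26 of 500 genes of like level were lower. Fosl1, its relative, read 4.30 on the array labelled knockout, under the control threshold, and 4.98 on the wild-type array. Its measured difference was -0.68, and it was at least 1.13-fold lower. Of the 4 FOS family genes, 3 were below 0 and only Fos was above.

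The JUN proteins spread less, from -0.16 to 0.19. Jun, which can form AP-1 with itself or with FOS proteins, read 8.68 on the array labelled knockout and 8.49 on the wild-type array, which is 1.14-fold higher (0.19). Of the 500 genes of like level, 303 had a lower difference. Jund, the JUN protein that many resting cells express steadily, read 8.59 on the array labelled knockout and 8.55 on the wild-type array. Its difference of 0.04 had 153 of 500 genes of like level below it. Junb, a JUN protein with weaker activation of many AP-1 targets, read 6.81 on the array labelled knockout and 6.97 on the wild-type array. It was 1.12-fold lower (-0.16), and 68 of 500 genes of like level were lower, so it stayed inside their central 90%. Jund turned negative under the median centring, loess correction and quantile normalization, where its lowest value was -0.10, while Jun stayed positive and Junb negative.

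**Figure D2:**
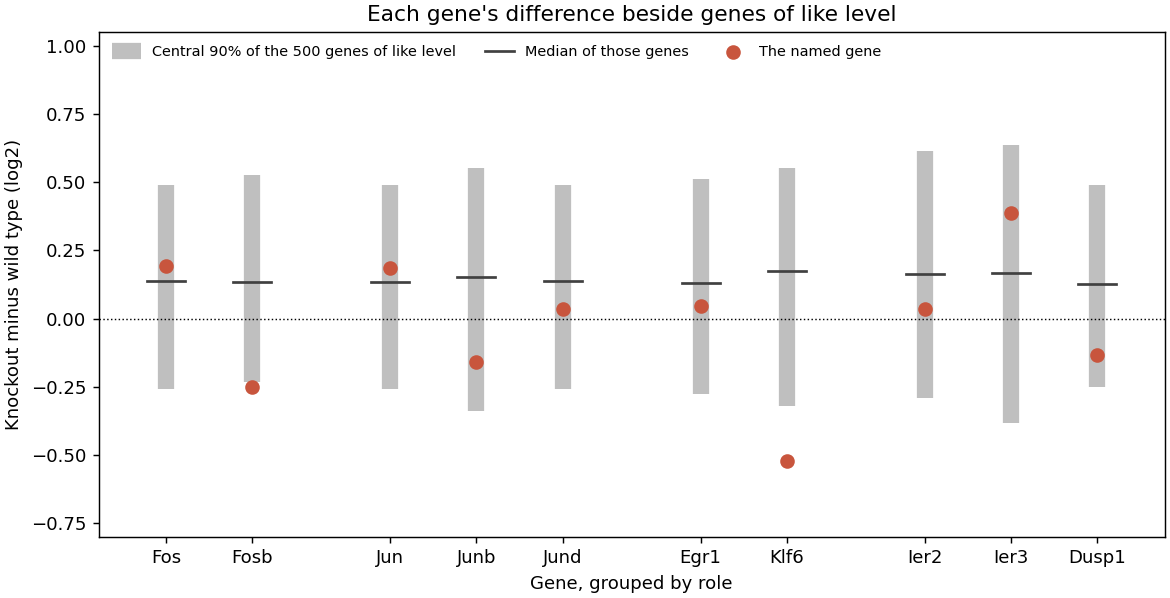
Difference of each early gene (red point, y axis in log2, knockout minus wild type) beside the central 90% (grey bar) and the median (black line) of the 500 genes nearest in mean level. Klf6 at -0.52 lies below its bar and Fosb at -0.25 just below its own, and the other 8 points lie inside.

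Klf6 had the largest difference of the 10 genes, whereas Egr1 hardly differed. Klf6, a Krüppel-like zinc finger factor induced early by growth and stress signals, read 6.87 on the array labelled knockout and 7.39 on the wild-type array. That is 1.44-fold lower (-0.52). Only 10 of 500 genes of like level, with means between 6.87 and 7.39, had a lower difference, and 2 of the nearest 200. Over the alternative scalings its difference ran from -0.67 to -0.52, and under median centring, loess correction and quantile normalization it was past 1.5-fold. Egr1, a zinc finger factor and a standard marker of serum response factor activity, read 7.94 on the array labelled knockout and 7.90 on the wild-type array. Its difference of 0.05 had 177 of 500 genes of like level below it, and it turned negative, to -0.10 at its lowest, under the same 3 rescalings.

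The other early response genes did not differ alike. Ier3, which encodes a regulator of survival under stress, read 6.37 on the array labelled knockout and 5.99 on the wild-type array, which is 1.31-fold higher (0.39). Of the genes of like level 391 of 500 had a lower difference, so Ier3 lay inside their central 90%. Ier2, a nuclear protein gene induced with Fos, read 6.77 on the array labelled knockout and 6.73 on the wild-type array. This difference of 0.04 also turned negative on rescaling, to -0.12 at its lowest. Dusp1, which encodes a phosphatase that switches off p38 and JNK, read 9.77 on the array labelled knockout and 9.90 on the wild-type array. It was 1.10-fold lower (-0.13), with 46 of 500 genes of like level below it. Few probe sets read that high, so its 500 neighbours had means from 7.93 to 11.4.

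**Figure D3:**
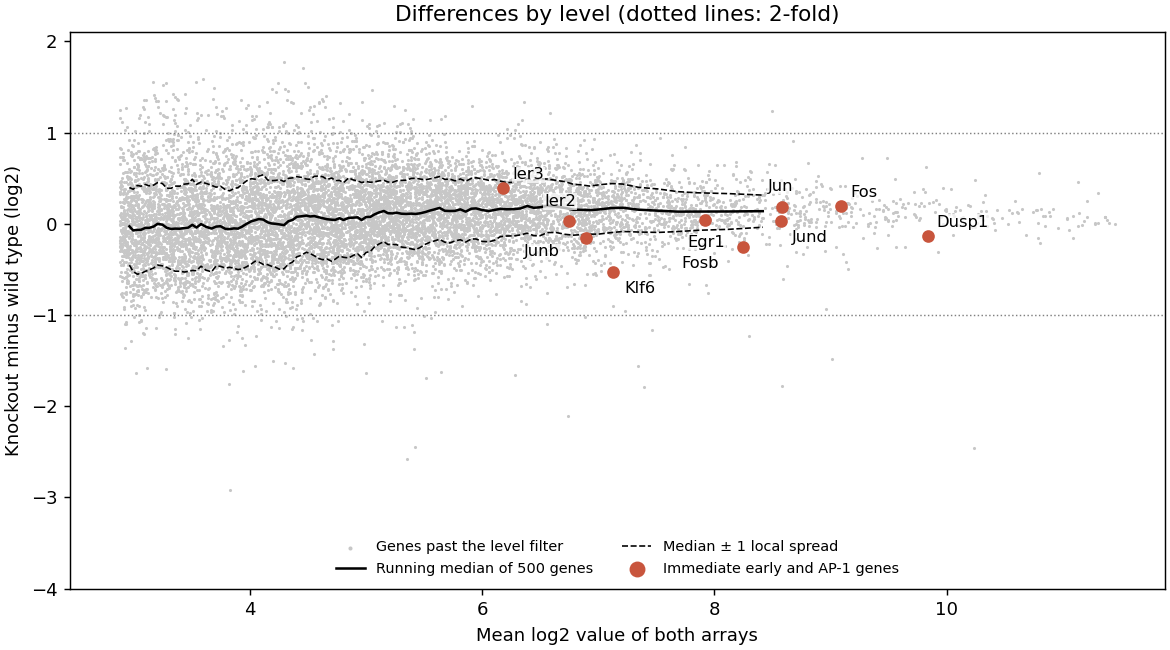
Difference between arrays (y axis, log2) against the mean log2 value of both arrays (x axis) for 10881 genes (grey), with the running median of 500 genes (solid) and 1 local spread on either side (dashed). The 10 early genes (red) all lie between the dotted 2-fold lines, and Klf6, Fosb, Dusp1 and Junb lie below the median by over 1 spread.

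The pathway around these genes was described with 7 lists of 101 genes, of which 83 were measured and passed the filter, 6 were under the filter and 12 were not analysed here. Of the 83, 1 was higher by 2-fold or more and 0 were lower by as much. At 1.5-fold, 10 of 83 were lower, a share of 12%, against 5.16% of all genes. By the same rule 4 of 83 were higher, a share of 4.82%, against 9.16% of all genes. The lists' overall median was -0.08, against 0.08 over all genes, and 48 of 83 were below 0. The counts below 0 that follow for each list stand beside the 41.0% of all genes below 0. Each list's counts at 1.5-fold stand beside the 5.16% of all genes lower and the 9.16% higher by as much.

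Among 9 other AP-1 and bZIP genes past the filter, 5 were below 0 and the median was -0.08. Besides the FOS relatives, Atf3, a stress-induced bZIP factor, read 5.76 on the array labelled knockout and 6.12 on the wild-type array, a difference of -0.36. Jdp2, a JUN partner that represses AP-1, read 5.25 on the array labelled knockout and 4.58 on the wild-type array, under the control threshold there, and was at least 1.36-fold higher. Batf, which pairs with JUN proteins in lymphocytes, differed by -0.08 and Atf2, a JUN partner that JNK and p38 phosphorylate, by 0.05. The small MAF genes Mafg (-0.08) and Mafk (0.03) and Batf2 (0.08) also differed little, with Mafk and Batf2 under the control threshold on both arrays and Mafg on the array labelled knockout.

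The relatives of Egr1 showed no common direction. Egr3, the only one of the 3 above the control threshold on both arrays, read 5.26 on the array labelled knockout and 5.56 on the wild-type array, a difference of -0.30. Egr2 (0.26) and Egr4 (-0.48) were under that level on both arrays. Of the corepressors that bind EGR factors, Nab1 differed by 0.25 and Nab2, under that level on both arrays, by -0.18. The median of these 5 genes was -0.18.

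Other immediate early genes outside AP-1 included several with larger differences than any of the 10. Of 15 further early transcription factors 10 were below 0, with a median of -0.19, and 3 of 15 were lower by 1.5-fold or more, with none higher by as much. Nfil3, a bZIP factor needed for ILC specification, was 1.91-fold lower (-0.93). Bhlhe40, a basic helix-loop-helix repressor induced on activation, read 6.67 on the array labelled knockout and 7.57 on the wild-type array, which is 1.87-fold lower (-0.90). The orphan nuclear receptor gene Nr4a3 read 4.91 on the array labelled knockout and 5.75 on the wild-type array, which is 1.79-fold lower (-0.84). For Nfil3 and Bhlhe40 3 of 500 genes of like level were lower, and for Nr4a3 7 of 500.

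Of the early genes that encode no transcription factor 16 of 24 were below 0, with a median of -0.13. Ier5, a relative of Ier2, read 5.44 on the array labelled knockout and 6.12 on the wild-type array (-0.67). Gadd45b, a stress-induced regulator of p38 and JNK signalling, read 5.54 on the array labelled knockout and 6.16 on the wild-type array (-0.62). In this list 3 genes were at least 1.5-fold lower and 1 higher, namely Gadd45g, at 0.71 and under the control threshold on both arrays.

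Feedback inhibitors of MAP kinase signalling had the lowest median of the 7 lists. Of 10 genes past the filter 7 were below 0, with a median of -0.34, and 3 were at least 1.5-fold lower. Dusp10, a phosphatase of JNK and p38, read 5.22 on the array labelled knockout and 6.02 on the wild-type array, which is 1.74-fold lower (-0.80), and 6 of 500 genes of like level were lower. Dusp6, a phosphatase of ERK, read 6.16 on the array labelled knockout and 6.76 on the wild-type array, which is 1.52-fold lower (-0.60). Dusp16 (-0.67) was under the control threshold on both arrays. Dusp1 with its -0.13 thus differed less than these phosphatase genes. With readings lifted to the control threshold where they fell under it, the median was -0.06 and no longer the lowest of the lists.

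The kinases and factors upstream showed no shift as a list, with 7 of 12 above 0 and a median of 0.06, which turned slightly negative under each of the 3 rescalings. Rps6ka3, which encodes the ERK-activated kinase RSK2, read 5.65 on the array labelled knockout and 4.57 on the wild-type array. It was 2.12-fold higher as measured and, since the wild-type reading was under the threshold, at least 1.80-fold higher. Map3k1, a kinase upstream of JNK, read 6.36 on the array labelled knockout and 6.73 on the wild-type array (-0.38). Creb1, which encodes CREB, differed by 0.37 and was under the control threshold on the wild-type array.

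Heat shock genes, which cell handling is known to induce along with immediate early genes, did not differ alike. Of 8 genes past the filter 6 were above 0, with a median of 0.41. Hspa1a (-0.19), an inducible HSP70 gene under the control threshold on the array labelled knockout, and the HSP40 gene Dnajb1 (-0.13) were below 0. Hspa1b, the twin of Hspa1a, was at 0.17 and under the threshold on both arrays. Hspa1a and Hspa1b are near-identical in sequence, so probes may not separate them. Hsp90aa1, the stress-inducible cytosolic HSP90, read 8.34 on the array labelled knockout and 7.70 on the wild-type array, which is 1.56-fold higher (0.64). The mitochondrial chaperonin gene Hspd1 read 5.90 on the array labelled knockout and 5.34 on the wild-type array (0.55). Hsph1 (0.58) was under the control threshold on both arrays. With values raised to that level the median of the list was 0.16.

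**Figure D4:**
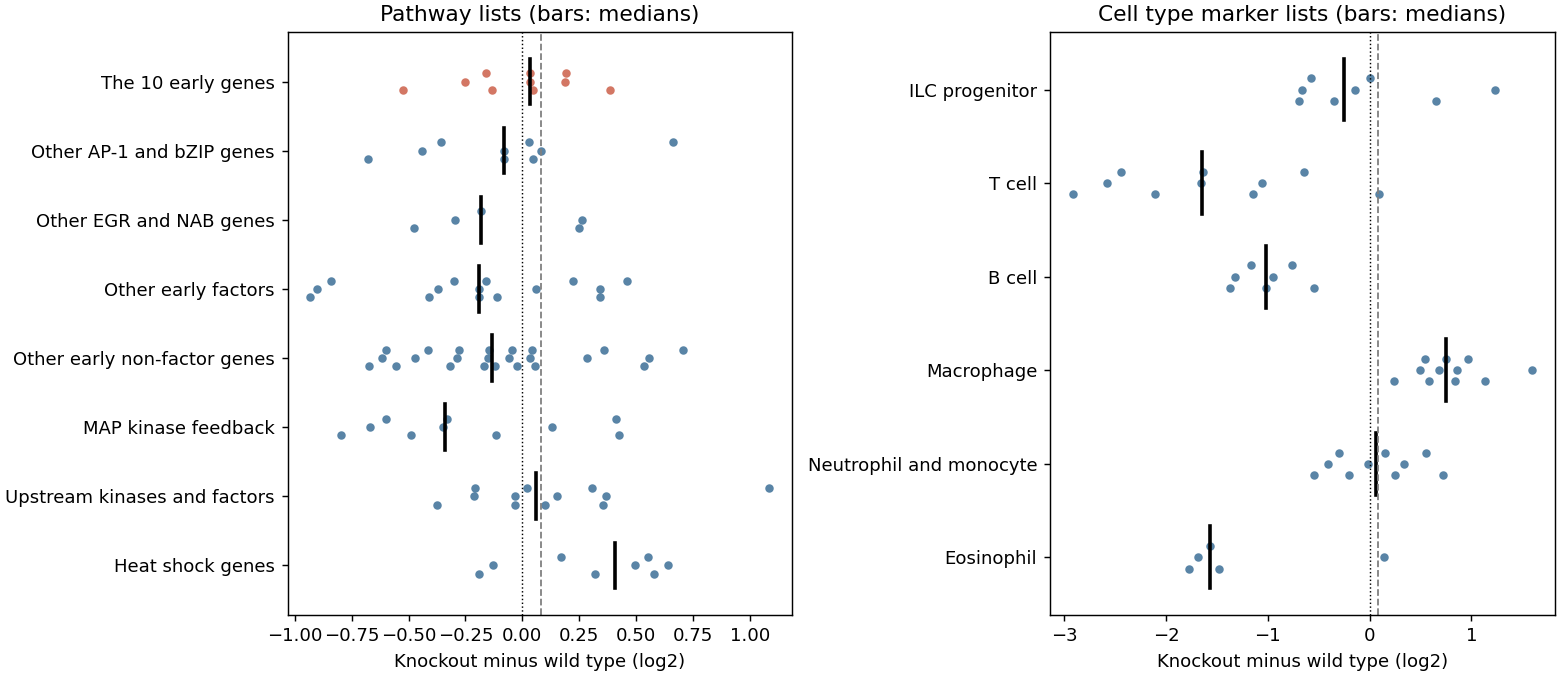
Differences between arrays (x axis, log2, knockout minus wild type) of each gene past the filter (points) by list (rows), with list medians as black bars, 0 as a dotted line and the median of all genes, 0.08, as a dashed line. The left panel holds the 10 early genes (red) and the 7 pathway lists, whose medians run from -0.34 to 0.41, and the right panel the cell type marker lists, whose medians run from -1.65 to 0.75.

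Markers of several cell types also differed between the arrays. In bulk RNA, fewer cells of a type and less RNA per cell cannot be told apart. Of 10 T cell genes 9 were below 0, and their mean log2 value was 4.31 on the array labelled knockout and 5.92 on the wild-type array, with Cd3e at -2.10 and Thy1 at -1.66. Only 3 of these 10 were above the control threshold on both arrays, and the knockout mean lies under that threshold, so the gap between the means is not exact. All 7 B cell genes were below 0, with means of 6.08 on the array labelled knockout and 7.10 on the wild-type array, Cd79a at -0.76 and Igll1 at -1.16. Of 5 eosinophil genes 4 were below 0, with means of 6.33 on the array labelled knockout and 7.60 on the wild-type array, Prg2 at -1.48 and Ear6 at -1.78. All 11 macrophage genes were above 0, with means of 5.90 on the array labelled knockout and 5.11 on the wild-type array, Hmox1 at 0.55 and Csf1r at 0.24. Neutrophil and monocyte genes had means of 9.53 on the array labelled knockout and 9.48 on the wild-type array, and 5 of 10 were below 0. The primary granule genes Elane (0.34) and Mpo (0.25) were above 0, and the secondary granule genes Ltf (-0.55) and Camp (-0.41) below. The progenitor list had means of 6.76 on the array labelled knockout and 6.83 on the wild-type array, and 5 of 8 were below 0, with a median of -0.25. Id2 (1.23) and Kit (0.65) were above 0, and Il7r (-0.70), Ets1 (-0.67) and Tox (-0.58) below. Since immediate early genes are used by all of these cell types, the part of these shifts in the readings of Klf6, Fosb and the other early genes was not tested.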

How the data were processed

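RNA of sorted ILC progenitors was measured on 1 array per genotype. The deposited values are log2 expression values per probe set, computed by the authors with RMA in Affymetrix Power Tools, per the submitters' processing notes. RMA corrects background, brings the arrays' distributions together and summarises probes, so a change in total RNA per cell would not show. The deposited columns were still not equal in distribution. Their medians over all probe sets were 2.87 on the array labelled knockout and 2.91 on the wild-type array. A further quantile normalization moved the members' median difference from 0.04 to -0.10. No tool version, genome build or scanner intensity is given in the sources used here.

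The table has 29129 probe sets, 19572 of them with 1 gene symbol in the platform annotation. The design text names another array type than that annotation, so gene names rest on the match of probe set names. A gene was read from its probe set of highest mean, and the level filter kept genes with a mean of at least 2.88, the median over all probe sets. The 5222 negative control probe sets gave 95th percentiles of 4.73 on the array labelled knockout and 4.80 on the wild-type array. Where only 1 reading of a gene was under 4.80, its fold is written as "at least", computed against 4.80 and with the other reading taken as exact.

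Differences were set beside the 500 genes nearest in mean level. All members, lists and alternatives were chosen with earlier results of these data known. Text names all members and every gene past the filter in the list of other AP-1 and bZIP genes and in that of EGR and NAB genes. Other bZIP genes on the arrays are not all named. From the other pathway lists it names the 3 largest differences and any 2-fold one, and from each cell type list 2 genes of highest mean. Hspa1a, Hspa1b, Dnajb1, Ltf, Camp, Il7r, Ets1 and Tox are named besides, chosen after their values were seen. No genes of most similar pattern are named, since 2 arrays give no pattern to rank. Alternatives tried were a stricter level filter (4.84, the 75th percentile) or none, values raised to 4.80, median centring, loess (span 0.3), quantile normalization, probe set means, a 1.5-fold threshold and 200 neighbours. Functions were tested on simulated data. Python 3.11.15, pandas 2.3.3 and statsmodels 0.14.6 were used. Precision is limited by the number of arrays.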

Additional observations from a re-analysis of the deposited data

How the results depend on the processing

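No paired analysis was possible because each genotype has 1 array, and no array could be left out. Without replicates, a gene's difference was counted as unchanged when it moved by less than its local spread, a list median when it moved by at most 0.1 and a count when it stayed within 1.5 times. The differences of the 10 early genes, and their distances from genes of like level, were unchanged in 70 of 70 alternative values. Of these, 20 could not move, since each member has 1 probe set and reads above 4.80. That leaves 50 values that could change, but not all of them could pass the limit. Median centring shifts every difference by 0.08, under the smallest local spread of 0.17. The loess correction shifts a member and its genes of like level nearly alike, so their distance hardly changes. The count of unchanged values is thus little evidence of stability. Within these limits 3 of 10 differences changed sign (Jund, Egr1 and Ier2). As a result, 7 members in place of 4 were below 0 under median centring, the loess correction and quantile normalization. The members' median was -0.11 with loess and -0.10 with quantile normalization, against 0.04 as deposited. No member passed 2-fold under any setting. None passed 1.5-fold as deposited, but Klf6 did at -0.61 under centring, -0.67 under loess and -0.65 under quantile normalization.

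Among the pathway lists, the EGR and NAB median was -0.024 with the stricter filter and 0.00 with values raised to the control threshold of 4.80. The median of MAP kinase feedback genes was -0.058 with raised values, -0.46 with loess and -0.45 with quantile normalization. The heat shock median was 0.16 with raised values and 0.29 with loess, and that of early genes that encode no transcription factor was -0.28 with loess and -0.25 with quantile normalization. The upstream list's median turned to -0.03 under centring and quantile normalization and to -0.02 under loess. Of the pathway genes, 0 were 2-fold higher with raised values, loess or quantile normalization. The number 2-fold lower was 1 under centring and 2 under loess or quantile normalization. At 1.5-fold, 4 were higher and 10 lower. Over all genes, 170 were 2-fold higher and 85 lower, which became 123 and 118 under centring. With no filter 137 were lower. The stricter filter gave 35 higher and 25 lower, raised values 19 higher and 23 lower, and the 1.5-fold threshold 997 higher and 561 lower. Apart from construction (fewer genes tested, another centre), the cause was not tested.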
